A study of Mus musculus with 20 samples.

Results

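Cytosolic ribosomal proteins were followed through 45 genes, out of 6137 genes with a single-symbol probe set. A gene was taken when its only platform symbol starts with Rpl or Rps followed by a digit or by p0, p1 or p2, with the Rps6k kinases left out, and each gene was read from its brightest probe set over all time points. The 45 genes comprised 25 of the large subunit, 12 of the small subunit, the stalk genes Rplp0 and Rplp2, and 6 symbols of paralogs or pseudogene-like copies. They were read from 33 probe sets of array A and 12 of array B, the 2 Affymetrix array types of the study. Another 24 ribosomal protein probe sets carry several symbols and were left out of the 45. Rps6, Rps27a, Rpl11 and Rplp1 had no single-symbol probe set and were not analysed here.

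The cells were 3T3-L1, established mouse fibroblasts that turn into adipocytes once a confluent culture receives the MDI hormone mixture (in standard use isobutylmethylxanthine, dexamethasone and insulin). Preconfluent and confluent cells were taken before induction, and further cells at 6, 12 and 24 hours and on days 2, 3, 4, 7 and 28 of differentiation. Every time point had 1 sample per array type, so that the 20 arrays hold no replicate. Stages were formed from the labels: 2 starting samples before induction, 3 early samples (6 to 24 hours), 2 middle samples (days 2 and 3) and 3 late samples (days 4, 7 and 28). Preconfluent cells are still dividing, so both samples before induction differ in growth state as well. All p-values rest on how far neighbouring samples differ, which may be technical, and not on repeat cultures.

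Cytosolic ribosomes translate the messenger RNAs of the nucleus, and each needs one copy of nearly every ribosomal protein, several copies only of the acidic stalk proteins. Ribosomal protein messenger RNAs are among the most abundant in growing cells, and they begin with a run of pyrimidines at the 5′ end through which growth signals control their translation. Ribosome production is a large cost of cell growth, and differentiating cells leave the cell cycle as they mature.

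Adipocyte markers lay low before induction and high late: all 9 tested rose in late cells, and their summed intensity went from between 4078 and 11723 before induction to between 148350 and 162260 late. Of 9 dividing-cell markers tested, 3 were lower in late cells, with sums from 6770 to 20548 before and from 3049 to 4411 late. Preadipocyte markers were lower for 2 of 8 tested. Macrophage markers were lower for 2 of 6 tested, endothelial markers higher for 1 of 3, and 0 of 5 skeletal muscle markers were called. Of all probe sets of both arrays, 5.82% were called higher and 5.08% lower late than before induction. The 3′ over 5′ ratio of a control is a sign of RNA integrity. For Gapdh on array A it was 0.986 and 1.33 in starting cells and 1.61, 1.43 and 1.45 early. It was 1.27 and 1.60 on days 2 and 3 and 1.14, 1.13 and 0.992 late. The beta-actin ratio there was 1.05 and 1.48 in starting cells and 1.39, 1.41 and 1.45 early. It stood at 1.41 and 1.72 on days 2 and 3 and 1.33, 1.29 and 1.41 late. On array B the ratios ranged from 0.722 to 0.815 for Gapdh and from 0.801 to 1.11 for beta-actin. The part of these shifts in the results on ribosomal proteins was not tested. In RNA from whole cultures, fewer cells of a type and less RNA per cell cannot be told apart.

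Of the 45 genes, 38 passed the filter on low values (28 on array A and 10 on array B). The other 7 were Rpl27, Rpl32, Rpl32-ps, Rpl34, Rpl39l, Rps4l and Rps7. Rpl32-ps and Rps7 lay at or below the floor (136 on array A, 156 on array B) in 9 of 10 samples, and the other 5 in all 10. Rpl4, which did pass, lay at or below the floor in 7 samples and reached 285 at most. These low values describe probe sets, since ribosomal proteins L4, L27, L32, L34 and S7 are part of every cytosolic ribosome. Of the 45 genes, 32 were read from probe sets counted here as family probe sets. Of these, 30 end in _f_at, the array maker's mark for probes common to related genes, and may also bind copies of the gene. Rpl34 (ending in _r_at) and Rps27l (ending in _g_at) carry other marks and were counted with them.

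On array A the ribosomal protein genes held their level through the first 2 days and were lower on days 7 and 28. For the 27 genes above the floor in every sample, the median was 89.3% of the mean before induction in preconfluent and 112% in confluent cells. It was 101%, 101% and 102% at 6, 12 and 24 hours and 106% on day 2. It then stood at 85.3% on day 3, 86.3% on day 4, 55.0% on day 7 and 61.4% on day 28. The other 140 probe sets of array A with a mean above 5000 had a median of 96.3% on day 7.

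**Figure D1:**
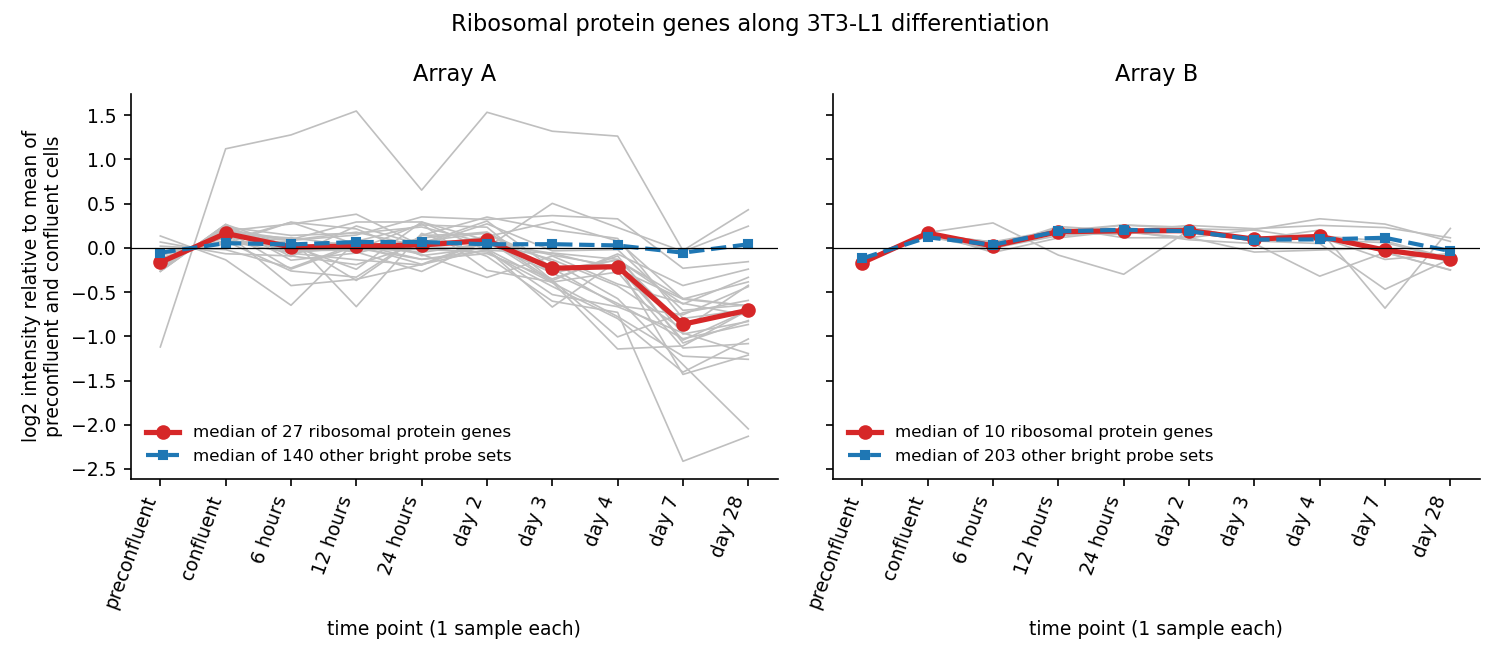
Log2 intensity of each ribosomal protein gene relative to its mean in preconfluent and confluent cells (y axis) at the 10 time points (x axis, 1 sample each) on array A (left) and array B (right). Grey lines are single genes, the red line their median and the blue dashed line the median of other probe sets with a mean above 5000. On array A the red line lies at 55.0% of the level before induction on day 7 while the blue line stays near 0, and on array B both lines lie close up to day 4 and stand at 98.3% (red) and 108% (blue) on day 7.

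By the stages formed from the labels, 19 of 28 genes tested on array A had all late values below both starting ones (22.1% of all probe sets). All late values lay below all early ones for 13 of 28 (16% of all). On array A, 18 of 28 genes tested (64.3%) had both day 7 and day 28 below all 8 earlier samples. This pattern, chosen after seeing the data, was held by 6.67% of all probe sets tested there, a share that does not allow for that choice. Rps26, Rpl13a, Rpl8, Rpl12, Rps15a, Rps4x and Rps18 were among these 18, and so was the stalk gene Rplp0. The same values taken day by day are no separate support. On day 7, 24 of 28 genes lay below every sample up to day 3 (17.3% of all probe sets), and on day 28, 23 did (19.3% of all). Day 4 was less uniform, with 11 of 28 genes below all 7 earlier samples against 17.9% of all probe sets. The lowest of the 10 values fell on day 7 for 17 of 28 genes (9.36% of all probe sets) and on day 28 for 6 (11.2% of all). Day 28 stood above day 7 for 21 of 28 genes, against 45.1% of all probe sets.

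Late cells were compared with cells before induction to ask what separates adipocytes from their precursors. The median log2 change of the 28 genes on array A was -0.61, with 26 of 28 below 0, against a median of -0.08 over all 4050 probe sets tested there. Single calls were few: 3 of the 28 were lower at an adjusted p under 0.05 (10.7%, against 4.4% of all probe sets on array A) and 0 were higher (5.56% of all). Without adjustment 10 had a p under 0.05, all of them lower. The share of all probe sets at that level is not given here, so this count has no background beside it. The 3 calls were Rps26, Rpl12 and Rps15a, and they are fragile: 0 to 6 genes were called when 1 time point was left out, with 0 without preconfluent cells, confluent cells or day 7, 6 without day 4 and 1 without any other. In the same fits the median lay between -0.76 and -0.46.

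Rps26, a small subunit protein that lies where the messenger RNA leaves the ribosome, read 2900 and 3640 before induction, 3510, 2050 and 3640 early, 3040 and 2140 on days 2 and 3, and 1960, 610 and 742 on days 4, 7 and 28. All 3 late values lay below every earlier one. It was 3.38-fold lower in late than in starting cells (log2 change -1.76 ± 0.48 SE, n = 3 against 2, limma adjusted p = 0.0405). Its change along the whole series was also called (trend adjusted p = 0.0124). A brighter array A probe set named for Gm6654 and Rps26 read 12100 and 14400 before and 8810, 4370 and 4400 late. Its fall of 2.39-fold was not called (-1.25 ± 0.38 SE, limma adjusted p = 0.0570), while its trend was (adjusted p = 0.0309). Day 4 lay above the day 3 value of 8240 in that probe set.

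Rpl12, a large subunit protein at the base of the stalk where elongation factors bind, read 17700 and 20800 before induction, 20400, 21700 and 19400 early, 19000 and 14600 on days 2 and 3, and 11200, 8210 and 8010 late. The late samples did not overlap with any other stage, and day 3 lay between. The fall was 2.12-fold (log2 change -1.09 ± 0.29 SE, adjusted p = 0.0360). Its trend adjusted p was 0.0112 and stayed under 0.05 in 17 of 17 alternative settings.

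Rps15a, a protein of the small subunit, read 7630 and 10200 before induction, 8740, 8720 and 8710 early, 8540 and 6520 on days 2 and 3, and 5070, 3330 and 4320 late. The late values again lay below all 7 earlier ones. It was 2.11-fold lower late than before induction (log2 change -1.08 ± 0.30 SE, adjusted p = 0.0431).

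Rpl13a, a large subunit protein also known from a complex that silences inflammatory messenger RNAs, came from a probe set ending in _s_at, the array maker's mark for probes common to similar transcripts. It read 2160 and 2400 before induction, 1900, 1810 and 2510 early, 2550 and 2040 on days 2 and 3, and 1530, 912 and 551 late. The values fell without a break from day 2 on, and the late ones did not overlap with the rest. The trend was called (adjusted p = 0.00366, 0.0593 without day 28), while the late against before contrast of -1.31 ± 0.40 SE had an adjusted p of 0.0604.

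In the trend, 13 of 28 genes on array A had an unadjusted p under 0.05, again without a share over all probe sets. After adjustment the trend test called 7 of the 28, against 15.6% of all probe sets there. Besides Rps26, Rpl12, Rps15a and Rpl13a they were Rpl10a, Rpl8 and Rps19. Rps19, a small subunit protein needed for subunit maturation and mutated in Diamond-Blackfan anaemia, read 7350 and 10200 before induction, 9550, 9720 and 10200 early and 5600, 4250 and 4750 late. Rpl8, a large subunit protein near the catalytic centre, read 8440 and 7700 before, 7570, 7070 and 8350 early, and 7080, 2990 and 3480 late, so that its day 4 value lay among the early ones. Rpl10a read 9630 and 12800 before, 11300, 9390 and 13600 early, and 7000, 5700 and 4850 late. Their trend adjusted p-values were 0.0345, 0.0458 and 0.0441. Leaving out 1 time point gave 3 to 5 trend calls, with 3 without 6 hours, day 2, day 3, day 4, day 7 or day 28, and 4 without confluent cells, 12 hours or 24 hours.

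Late cells were also compared with early cells, a contrast that contains any early change as well as the late one. Here 7 of 28 genes on array A were lower (6.25% of all probe sets) and 0 higher (6.72% of all), with a median log2 change of -0.55 against -0.10 for all probe sets. The 7 were Rps26 (-1.63 ± 0.43 SE), Rpl12 (-1.18 ± 0.26), Rps15a (-1.06 ± 0.27), Rpl22 (-1.06 ± 0.26), Rps19 (-1.02 ± 0.26), Rpl10a (-0.97 ± 0.29) and Rps29 (-0.84 ± 0.25), with limma adjusted p-values from 0.0140 for Rpl12 to 0.0499 for Rps29. Rpl22, which has a close paralog in Rpl22l1, read 9780, 9850 and 12100 early and 4530, 4640 and 6140 late. Rpl22l1 read 3590, 2640 and 3760 early and 3670, 1960 and 2100 late and was not called. Rps29, a small zinc-binding protein, read 14900, 17100 and 17100 early and 8880, 8260 and 10300 late. Leaving out 1 time point gave between 1 call (without 12 hours, 24 hours or day 7) and 9 (without day 4), and 2 without 6 hours or day 28.

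**Figure D2:**
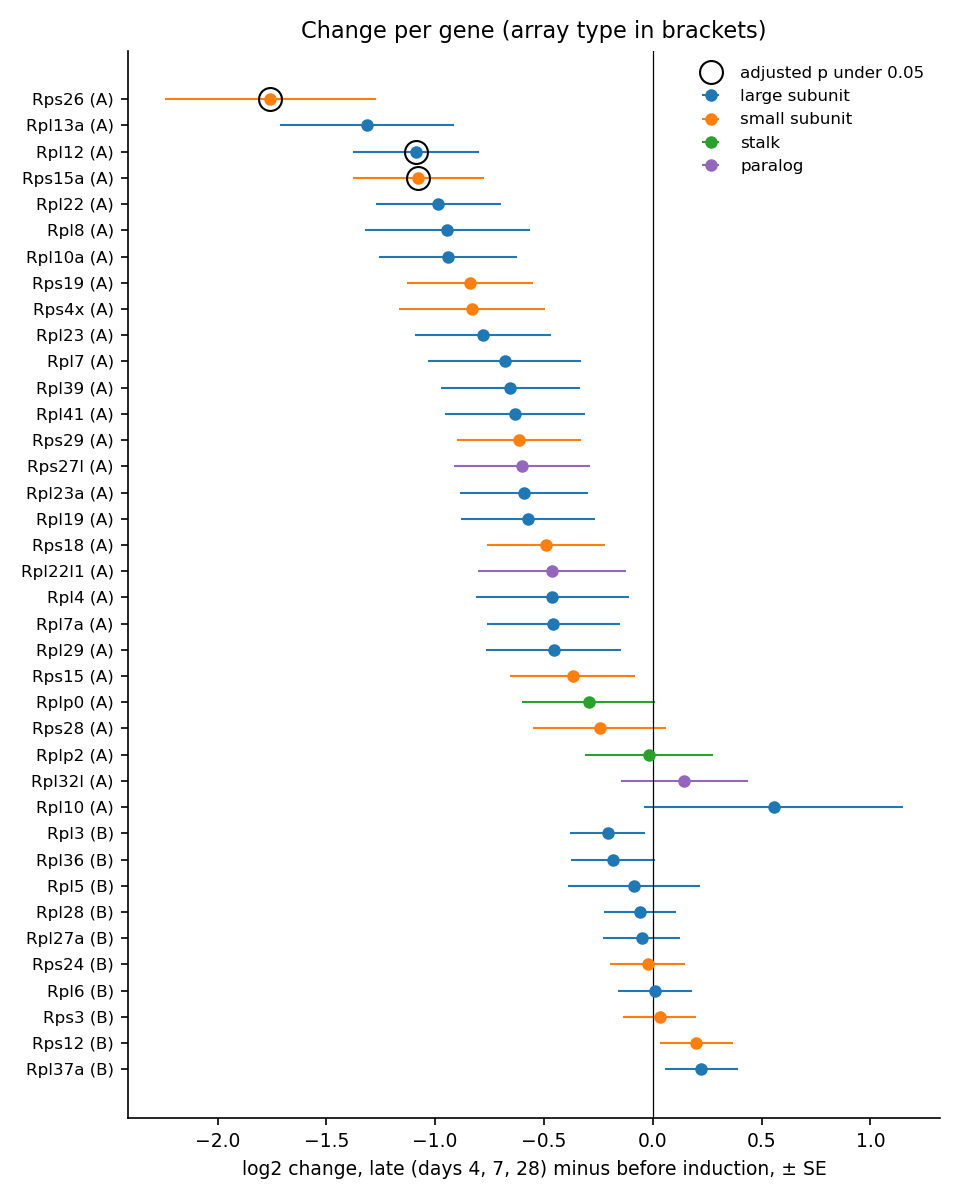
Fitted log2 change between late (days 4, 7 and 28) and starting cells (x axis, point ± SE) for the 38 genes tested (y axis, array type in brackets), coloured by subunit, with black circles on the 3 genes at an adjusted p under 0.05. On array A, 26 of 28 points lie below 0, and on array B the 10 points lie between -0.21 and 0.22.

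Both subunits had similar medians on array A. The median log2 change late against before was -0.65 for 15 large subunit genes and -0.72 for 8 small subunit genes. The stalk genes stood nearer to 0. Rplp0, which anchors the stalk to the large subunit, read 20900 and 27300 before, 28800, 31100 and 24300 early and 25200, 16000 and 18300 late (log2 change -0.30 ± 0.31 SE, adjusted p = 0.602). Rplp2, one of the acidic proteins carried on it, read 13500 and 17500 before, 16300, 17000 and 19600 early and 19300, 13100 and 13800 late (-0.02 ± 0.29 SE, adjusted p = 0.987). Late and starting values overlapped for both in these probe sets. A second, dimmer Rplp2 probe set of array A read 10500 and 13200 before and 10300, 9370 and 8570 late. Its late values lay below both starting ones (-0.33 ± 0.29 SE, adjusted p = 0.534). Whether the stalk differs from the rest was not tested.

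Further genes of array A lay lower late without a call. Rps4x, a small subunit protein encoded on the X chromosome, read 8260 and 9260 before induction and 7240, 3990 and 4130 late (-0.83 ± 0.34 SE, adjusted p = 0.147). Rpl23, a large subunit protein that can bind Mdm2, read 16200 and 23400 before and 9690, 11700 and 12900 late (-0.78 ± 0.31 SE, adjusted p = 0.145). Rps18, at the head of the small subunit, read 27500 and 30600 before and 24600, 19400 and 18400 late (-0.49 ± 0.27 SE, adjusted p = 0.296). In these 3 genes no late value reached a starting one. Rps28 overlapped, with 17100 and 24700 before and 19600, 15300 and 17400 late (-0.24 ± 0.31 SE).

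Just 2 genes of array A lay above 0. Rpl10, which joins the large subunit late in its assembly, read 162 in preconfluent and 766 in confluent cells, then 854, 1030 and 554 early and 846, 345 and 475 late. Its starting level rests on 2 very unlike samples, so the late change of 0.56 ± 0.59 SE and the early change of 1.16 ± 0.59 SE carry wide errors (adjusted p = 0.615 and 0.620). Rpl32l, the symbol of a copy of Rpl32 and read from a family probe set, read 15400 and 16500 before, 19500, 18500 and 15000 early and 18700, 15500 and 18900 late (0.15 ± 0.29 SE, adjusted p = 0.808). Rps27l, a paralog of Rps27 known as a p53 target, read 551 and 457 before and 378, 325 and 295 late (-0.60 ± 0.31 SE, adjusted p = 0.261). Probe sets of array A with several symbols differed in sign from the first 2 of these: one named for Gm5621 and Rpl10 stood at -0.68 ± 0.30 SE (adjusted p = 0.185) and one named for Rpl32l and Rpl32 at -0.51 ± 0.26 SE (adjusted p = 0.263).

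Rpl41, whose product is one of the shortest known proteins, read 43200 and 47700 before induction, 45300, 45300 and 41500 early, and 42600, 23100 and 25500 late. Days 7 and 28 lay far below the other 8 samples, while day 4 was among them (-0.63 ± 0.32 SE, adjusted p = 0.252).

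Early cells, 6 to 24 hours after induction, were compared with starting cells to ask for a first response to the hormones. On array A 0 of 28 genes were called in either direction, and 0 had an unadjusted p under 0.05 (0.0988% of all probe sets were called higher and 0.148% lower). The median log2 change was -0.02. Beside Rpl10, the largest were Rpl7 at -0.32 ± 0.35 SE, Rps29 at 0.23 ± 0.28 and Rplp0 at 0.23 ± 0.31. Confluent values lay above preconfluent ones for 25 of 28 genes, against 47.8% of all probe sets, in 1 sample each. On array B all 10 did (48.3% of all). Their median went from 89.1% of the starting mean in preconfluent to 112% in confluent cells. That of the 203 other array B probe sets with a mean above 5000 went from 92.0% to 109%, a similar rise. On array A the medians were 89.3% and 112% for the 27 genes above the floor, and 96.4% and 104% for the 140 other bright probe sets.

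The 10 genes on array B did not show the late decrease. Their median log2 change late against before was -0.04, near 0 with a sign that turned when 1 time point was left out (-0.20 without preconfluent and 0.12 without confluent cells). Single genes ranged from -0.21 ± 0.17 SE for Rpl3 to 0.22 ± 0.17 for Rpl37a, and 0 of 10 were called in any of the 4 tests, where 18.2% of all probe sets of array B were called in the trend. Of all probe sets there, 6.12% were higher and 5.86% lower late than before induction, 7.67% higher and 6.91% lower late than early, and 0.311% higher and 0.17% lower early than before induction. None of these 10 had an unadjusted p under 0.05 in any test. None of the 10 had both day 7 and day 28 below the 8 earlier samples (6.63% of all probe sets of array B).

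Rps3, which lines the channel where messenger RNA enters the ribosome, read 10100 and 12600 before induction and 12400, 11900 and 10400 late on array B (0.03 ± 0.17 SE). Rpl28, the brightest probe set of array B, read 11400 and 14400 before and 12600, 12800 and 11500 late (-0.06 ± 0.17 SE). Rpl5, the carrier of 5S ribosomal RNA, was dimmer, with 1210 and 1540 before, 1660, 1290 and 1110 early and 1570, 851 and 1590 late (-0.09 ± 0.30 SE). On array A 2 probe sets named for both Rpl5 and Rpl5-ps2 had log2 changes of -0.68 ± 0.28 SE (adjusted p = 0.151) and -1.27 ± 0.33 SE (adjusted p = 0.0332). Rps12 and Rpl6 had log2 changes of 0.20 ± 0.17 SE and 0.01 ± 0.17 SE. In all 5 the late values overlapped with the starting ones.

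Most of the array B genes lay close to the top of that array's scale, but Rpl5 did not, and Rpl32 and Rpl32-ps were at the floor. The highest gene probe set of each array read between 11400 and 16700 on array B and between 38800 and 50900 on array A. Of the 12 genes read from array B, 8 had a mean above 8681, the 99th percentile of its probe sets. On array A, 12 of 33 genes stood above its 99th percentile of 11723. For probe sets with a mean above 5000 the median SD of log2 values over time was 0.24 on array B and 0.42 on array A, while between 500 and 1500 it was 0.43 and 0.49. Up to day 4 the medians of the array B ribosomal genes and of its 203 other bright probe sets lay close, at 114% and 115% of the starting mean at 24 hours and 109% and 107% on day 4. On day 7 they stood apart, at 98.3% for the ribosomal genes and 108% for the others, and on day 28 at 92.0% and 97.5%.

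Some genes were read on both array types, but the labels do not say whether both arrays of a time point received the same RNA extract, so array type and extract cannot be told apart. Rplp0 had late values of 10000, 10700 and 8990 on array B, above its 6830 and 8490 before induction, while the late values on array A included its 2 lowest. The log2 change was 0.37 ± 0.17 SE on array B and -0.30 ± 0.31 on array A, with neither called. Rpl36, a large subunit protein, went the same way on both: 5900 and 6930 before and 5580, 4730 and 6130 late on array A, and 6710 and 8280 before and 7710, 5390 and 6840 late on array B. Pearson's r of the 10 values between arrays, as a description, was 0.83 for Rpl36, 0.57 for Rps3, 0.25 for Rpl7 and -0.29 for Rplp0.

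Rps3 had a second, dim probe set on array A with 452 and 592 before, 541, 590 and 708 early and 288, 358 and 244 late. This probe set was 2.08-fold lower late than early (-1.06 ± 0.28 SE, adjusted p = 0.0311), while the bright one on array B differed by -0.12 ± 0.15. Rpl7 had a log2 change late against before of -0.68 ± 0.35 SE on array A and of -0.25 ± 0.23 on array B, where its probe set was near the floor.

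Control probe sets also differed between the array types. The Gapdh control for the 3′ end read 27700 and 21300 before induction and 34900, 45200 and 48800 late on array A, but 8800 and 11500 before and 9880, 9800 and 8890 late on array B. The beta-actin control read 31300 and 30300 before and 17400, 22300 and 20500 late on array A, and 6270 and 9070 before and 10800, 10700 and 9560 late on array B. Log2 changes were 0.81 on array A and -0.08 on array B for Gapdh, and -0.63 and 0.46 for beta-actin, so that beta-actin, like Rplp0, had opposite signs. Over 33 genes with an array B mean above 5000 that are on both, 23 had the same sign, the median Pearson's r over the 10 time points was 0.76, and the median size of the log2 change was 0.57 on array A against 0.30 on array B. Over the 189 dimmer genes, 143 had the same sign, the median r was 0.45, and the sizes were 0.53 and 0.41. The bright genes thus had the higher median r, but not the higher share of same signs, and the larger gap in size. Whether the flat values of array B ribosomal genes show a steady level was not tested.

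**Figure D3:**
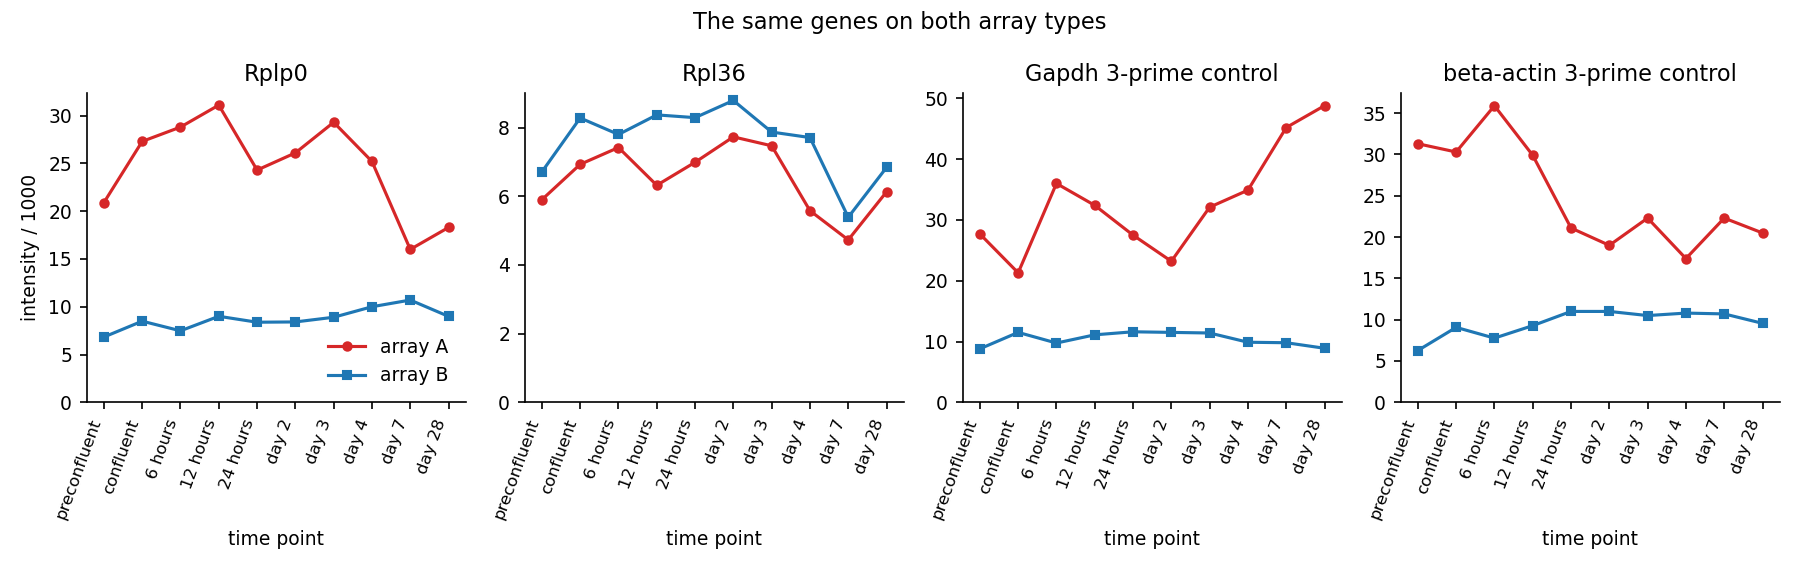
Intensity divided by 1000 (y axes, linear from 0, each panel with its own scale) at the 10 time points (x axes, 1 sample each) for Rplp0, Rpl36 and the 3′ control probe sets of Gapdh and beta-actin on array A (red circles) and array B (blue squares). Rplp0 reads 16000 on day 7 on array A and stands at 10700 on array B, and Gapdh reaches 48800 on array A and stays between 8800 and 11600 on array B.

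The ribosomal protein genes varied together on both array types. Over 351 pairs of the 27 genes on array A, the median Pearson's r across the 10 samples was 0.76 and 94.3% of pairs were above 0. The median for other bright probe sets there was 0.02. Over 45 pairs of the 10 genes on array B, which lacked the late decrease, the median was 0.61 and 84.4% were above 0, against a median of 0.19. All pairs of an array type share the same 10 arrays, and many of their probe sets are marked as shared by a family. Of the 28 genes tested on array A, 6 came from probe sets not counted as family probe sets. Of these 6, 3 (Rpl13a, Rpl39 and Rpl41) had days 7 and 28 below all earlier samples. But 5 of the 6, these 3 included, end in _s_at, another mark of probes common to similar transcripts, so that binding of related transcripts remains possible for them. The other of these 6 genes, Rpl10, carried neither mark and stood at 0.56 ± 0.59 SE late against before. It read 162 and 766 before induction and 345 and 475 on days 7 and 28, so it did not show the pattern. Of the 16 genes of array A below its 99th percentile, 11 had days 7 and 28 below all earlier samples.

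The left-out ribosomal probe sets with several symbols had a similar median on array A. Of 23, 21 were tested, with a median log2 change of -0.75 late against before, 19 below 0 and 1 called lower, the Rpl5 and Rpl5-ps2 probe set above.

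The 5′ ends of these genes were read from RefSeq (GRCm38.p6), since a pyrimidine run at the first base of the transcript is the known mark of this gene class. A run was taken as a C followed by at least 7 letters each C or T, on the gene's strand only, within 30 bases before to 30 after an annotated start, a definition chosen after looking at these sequences. Of 35 genes with an entry, 21 (60%) held one, against 20.6% of all 27025 genes in the table. Shown are 3 genes with called changes (Rps26, Rps15a and Rpl13a), 1 that lay lower without a call (Rps18), 1 near 0 (Rplp2) and 1 called gene with no run in this window (Rpl12), with the runs in capitals.
Rps26, chr10:128626477-128626536, minus strand: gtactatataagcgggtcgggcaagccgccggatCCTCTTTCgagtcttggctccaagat
Rps15a, chr7:118116118-118116177, minus strand: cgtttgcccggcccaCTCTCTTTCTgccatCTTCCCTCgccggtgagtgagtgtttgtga
Rpl13a, chr7:45128716-45128775, minus strand: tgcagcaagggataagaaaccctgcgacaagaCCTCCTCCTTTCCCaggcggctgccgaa
Rps18, chr17:33955636-33955695, minus strand: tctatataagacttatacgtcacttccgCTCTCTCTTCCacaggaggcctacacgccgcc
Rplp2, chr7:141447621-141447680, plus strand: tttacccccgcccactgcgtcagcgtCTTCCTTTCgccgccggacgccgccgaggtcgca
Rpl12, chr2:32961682-32961741, plus strand: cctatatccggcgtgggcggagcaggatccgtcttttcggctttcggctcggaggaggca
Of the 9 genes called in any test, 7 had an entry: 4 held a run (Rpl10a at 1 of its 2 starts, Rpl13a, Rps15a and Rps26) and 3 did not (Rpl12, Rpl22 and Rps19). A match is a description of the letters in this window, and no match says only that they are not in it.

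Other genes of translation were taken from fixed lists and did not all move with the ribosomal proteins. Mitochondrial ribosomal proteins, which build the separate ribosomes of mitochondria, had the opposite sign. Of 31 tested, 27 lay above 0 late against before, with a median log2 change of 0.46, and 4 were higher (5.82% of all probe sets of both arrays) and 0 lower (5.08% of all). Mrpl15 rose 10.3-fold, from 151 and 328 before induction to 2840, 2740 and 1530 late (3.36, adjusted p = 0.0011). Mrpl20 read 483 and 293 before and 1230, 774 and 895 late (1.33, adjusted p = 0.0320), and Mrps31 read 522 and 393 before and 747, 1000 and 811 late (0.90, adjusted p = 0.0442). The late values did not overlap with the starting ones in any of these. Mrpl45 was called too, with starting values below the floor.

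Ribosome assembly and nucleolar factors had a median of -0.36 over 37 tested. Late against before induction, 5 were lower (5.08% of all) and 0 higher (5.82% of all). The 5 were Tcof1, Utp20, Ebna1bp2, Gar1 and Fbl. Utp20 read -29, 103 and 130 late, all below the floor. Against early cells 10 were lower (6.55% of all) and 0 higher (7.16% of all). Fbl, the methyltransferase of ribosomal RNA, read 3910 and 1730 before, 2670, 3560 and 3130 early and 1370, 739 and 563 late (-1.65, adjusted p = 0.0488). Ncl, nucleolin, read 6420 and 3320 before, 5240, 6030 and 5780 early and 1970, 2790 and 2080 late, and was lower than early cells (-1.33, adjusted p = 0.0172). In confluent cells 28 of the 37 were not above their preconfluent value, whereas 25 of 28 ribosomal protein genes on array A were above it. These are single samples, and the difference was not tested.

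Elongation and nascent chain factors had a median of -0.44 over 8 tested, with 0 called against starting cells and 2 lower than early cells (6.55% of all). These were Eef1d (-1.36) and Eef1b2 (-1.14), subunits of the factor that recharges Eef1a. Eef1a1 itself read 25400 and 28700 before and 28500, 24200 and 27200 late on array A (-0.02). On array B its log2 change was 0.63, and Pearson's r between the arrays was -0.22. Initiation factors had a median of -0.26 over 24 tested, with 1 lower than early cells (6.55% of all), Eif3h (-0.88, adjusted p = 0.0475). The ribosomal proteins with other names, Fau and Rpsa, stood at -0.23 and -0.38 and were not called. Among 11 regulators of ribosomal protein synthesis, Rps6ka3 and Akt1 were lower late than before induction (5.08% of all) and 0 higher (5.82% of all). Against early cells 2 were higher (7.16% of all) and 2 lower (6.55% of all). The lower ones were Tsc2 (-1.72, adjusted p = 0.0304), part of a brake on growth signalling, and Akt1 (-0.73, adjusted p = 0.0142), a kinase of insulin signalling. Tsc2 was called on array B, and its array A probe set of similar brightness did not follow it (Pearson's r of -0.03). Late against before, Tsc2 stood at -0.76 on array B and -0.27 on array A. The higher ones were Mxd4 (1.10, adjusted p = 0.0481), an antagonist of Myc, and Eif4ebp1. Eif4ebp1, a repressor of cap-dependent initiation, read 6880, 4280 and 3980 early and 12400, 14400 and 15200 late (1.51, adjusted p = 0.0101).

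**Figure D4:**
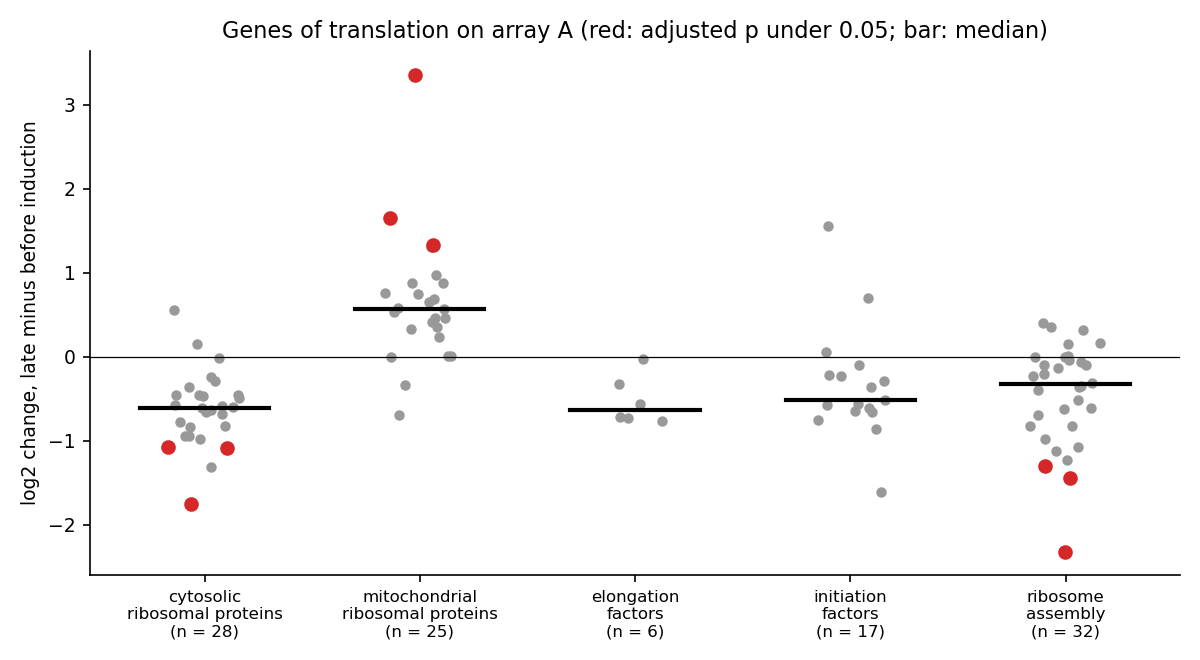
Fitted log2 change between late and starting cells (y axis) for the tested genes of array A in 5 groups (x axis): 28 cytosolic ribosomal proteins, 25 mitochondrial ribosomal proteins, 6 elongation factors, 17 initiation factors and 32 assembly factors. Points are genes, red where the adjusted p is under 0.05, and bars are medians, -0.61 for cytosolic and 0.57 for mitochondrial ribosomal proteins.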

How the data were processed

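The deposited values are linear intensities per probe set, scaled by the authors to a common trimmed mean, as the values show. The software is not given in the sources used here. Members and gene lists were chosen with earlier results of these data known. Control probe sets were left out of the tests. Values below a floor (136 on array A, 156 on array B, the 10th percentile with its sign turned) were set to it before log2. Probe sets above 182 (A) or 156 (B) in at least 2 of 10 samples were tested. Stage means and, for the trend, a cubic spline of 3 degrees of freedom were fitted per array type with limma 3.58.1 in R 4.3.3, on 6 residual degrees of freedom for stages. Benjamini-Hochberg adjustment ran over 7582 probe sets of both array types, and a call is an adjusted p under 0.05. All adjusted p-values are limma's. The fit was tested on simulated data. The genes named are those called, the 5 largest changes each way, those of largest and smallest spread, on both arrays, at the floor, or with a role in the text. The alternatives changed the floor, filter, scaling, probe set, spline and time points left out. With no counts behind intensities, the number of arrays limits the precision.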

Additional observations from a re-analysis of the deposited data

How the results depend on the processing

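On array A the median change of the ribosomal protein genes kept its sign late against before and late against early in every alternative run. The calls did not. For the trend, 7 calls became 4 with the floor at 0.25 of its value, 4 without the filter, 3 with arrays centred on the median, 1 without family probe sets and 3 to 5 with 1 time point left out. For late against before, 3 lower calls became 0 with the floor at 0.25 of its value, with centred arrays and without family probe sets, and 0 to 6 with 1 time point left out. For late against early, 7 lower calls became 4 with the floor at 0.25 of its value, 1 without family probe sets and 1 to 9 with 1 time point left out. On array B the median change late against before lay between -0.20 and 0.12 with 1 time point left out. The cause was not tested, except that fewer genes are tested without family probe sets. The count of 18 genes with days 7 and 28 lowest, an alternative chosen after seeing the data, was 18 after quantile normalization, 19 with centred arrays, 3 of 6 without family probe sets and 11 of 16 without genes above the 99th percentile. No paired analysis was possible because the labels carry no replicate numbers.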
